A study of Homo sapiens with 6 samples.

Results

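The peaks of V5-tagged GSE1 that lie in 2 dense stretches of the short arm of human chromosome 4 were examined. A peak was a member if its first base fell within the first 4 Mb of chromosome 4 (the tip segment) or between 6 and 9 Mb (the inner segment) of the hg38 assembly. The segments held 442 of the 21401 peaks of the DMSO list and 288 of the 13233 peaks of the MC2580 list. Of these, 289 DMSO and 199 MC2580 peaks lay in the tip segment, and 153 and 89 in the inner segment. The segments were chosen from these same lists because peaks were dense there, so their density is given as a description and without a test.

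Cells of the NB4 line, which derives from a human acute promyelocytic leukaemia, were transduced with the lentiviral vector pLEX_307, either empty (EV) or carrying a V5-tagged GSE1 coding sequence (transcript variant 2). GSE1-transduced cells received DMSO, the vehicle, or MC2580, an inhibitor of the demethylase LSD1, at 2 µM for 24 h, and EV cells were untreated. Chromatin was immunoprecipitated with a V5 antibody in the 3 conditions and each had an input, so that every group held 1 library and no test between the conditions could be made. The EV ChIP and the inputs served only as the background of peak calling, and the tagged protein came from the added construct, not from the cells' own GSE1 gene.

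GSE1 is a coiled-coil protein found with LSD1, HDAC1/2 and CoREST, a complex that removes methyl groups from histone H3 and silences genes in blood precursors. LSD1 inhibitors of this type bind its FAD cofactor and loosen some of its contacts with partner proteins. The end of the short arm of chromosome 4 is a gene-rich band whose loss causes Wolf-Hirschhorn syndrome, and it holds the genes of the growth factor receptor FGFR3, the histone methyltransferase NSD2 and huntingtin (HTT).

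The 200 bp at the centre of 4 peaks are shown (hg38, forward strand): for each segment the strongest site found in both lists, and for the inner segment also the strongest sites found in the DMSO list or in the MC2580 list alone. Capitals mark the only match to 6 transcription factor words described further on. Peaks wider than 3000 bp were not used, and a stronger MC2580 peak in SH3TC1 was passed over because its centre touched an untranslated region.
ZFYVE28 intron, in both lists, chr4:2413507-2413706: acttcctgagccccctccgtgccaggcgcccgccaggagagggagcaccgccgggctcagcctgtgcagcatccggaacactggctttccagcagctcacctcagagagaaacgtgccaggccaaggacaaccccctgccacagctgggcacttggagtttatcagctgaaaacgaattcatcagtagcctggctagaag
TBC1D14 intron, in both lists, chr4:6925707-6925906: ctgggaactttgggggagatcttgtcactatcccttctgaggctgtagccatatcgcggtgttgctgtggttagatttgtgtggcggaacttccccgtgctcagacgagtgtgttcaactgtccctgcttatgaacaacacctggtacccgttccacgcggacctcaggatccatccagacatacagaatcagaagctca
Upstream of WFS1, DMSO list alone, chr4:6267431-6267630: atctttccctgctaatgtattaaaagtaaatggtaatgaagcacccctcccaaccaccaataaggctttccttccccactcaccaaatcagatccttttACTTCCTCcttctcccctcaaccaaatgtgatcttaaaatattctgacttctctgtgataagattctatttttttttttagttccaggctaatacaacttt
Intergenic, 29015 bp from BLOC1S4, MC2580 list alone, chr4:6747370-6747569: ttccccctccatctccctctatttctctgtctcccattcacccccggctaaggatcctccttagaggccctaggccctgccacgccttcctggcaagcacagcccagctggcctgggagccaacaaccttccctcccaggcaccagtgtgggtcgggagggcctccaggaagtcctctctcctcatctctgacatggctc

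These 4 windows differed in base composition. The GC content was 61% in the ZFYVE28 window. In the inner segment it was 52.5% in TBC1D14, 37% upstream of WFS1 and 62% near BLOC1S4. The word marked upstream of WFS1 is the reverse complement of GAGGAAGT, a site of the myeloid factor PU.1, and lay 3 bp from the centre of that peak.

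The segments made up 6.96 Mb of sequence outside assembly gaps, against 183 Mb for the rest of chromosome 4. In them the DMSO list had 63.5 peaks per Mb and the MC2580 list 41.4. On the rest of the chromosome the values were 2.53 and 1.36 peaks per Mb, and over the whole lists 7.29 and 4.50. The segments thus held 48.8% of the 905 DMSO peaks and 53.7% of the 536 MC2580 peaks of chromosome 4. DMSO peaks covered 7.02% of the segments' sequence and MC2580 peaks 3.74%, as compared with 0.261% and 0.132% of the rest. The median distance from a DMSO peak to the next was 8.24 kb in the segments (95% interval 6.82 to 9.78 kb) and 57.1 kb elsewhere on the chromosome.

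Density varied among the 7 bins of 1 Mb. The bin from 2 to 3 Mb had the most DMSO peaks, 95, with 67 MC2580 peaks, and the bin from 1 to 2 Mb had 89 and 69. The bin from 7 to 8 Mb, which holds the large gene of the sorting receptor SORCS2, had the fewest, 31 and 18. In all 7 bins the MC2580 list had fewer peaks than the DMSO list. The 2 Mb between the segments had 27 DMSO and 18 MC2580 peaks, or 13.5 and 9 per Mb.

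At the boundaries the peaks thinned out, although the limits themselves are round numbers. The last DMSO peak below 4 Mb started at 3939839 with a score of 55.6, and the next one started 295 kb past that limit with a score of 51.9. Near 6 Mb an MC2580 peak with a score of 115 lay 1.58 kb outside, and the first one inside lay 21.9 kb past the limit with a score of 55.1. The last DMSO peak below 9 Mb lay 218 kb before the limit with a score of 93.6, and the next lay 595 kb beyond it with a score of 135. Around that last limit the nearest MC2580 peaks were 59.6 kb inside, with a score of 50.2, and 868 kb outside, with a score of 77.5.

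The segments also differed from the rest of chromosome 4 in gene content and base composition. They held 12.1 protein-coding genes per Mb with a GC content of 51.1%, and the rest 3.68 genes per Mb with 37.8%. Of the 184 other bins of the chromosome, 46 had at least as many protein-coding genes as the poorest bin of the segments (6). Those 46 bins had a median of 2 DMSO peaks and a maximum of 23, against 31 to 95 in the segments, and at most 14 MC2580 peaks, against 18 to 69. Only 1 other bin reached the lowest GC content of the segments' bins. It was the end of the long arm, with 155 kb of sequence and 4 DMSO peaks, too short to compare. The part of gene content or base composition in the density was not tested.

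**Figure D1:**
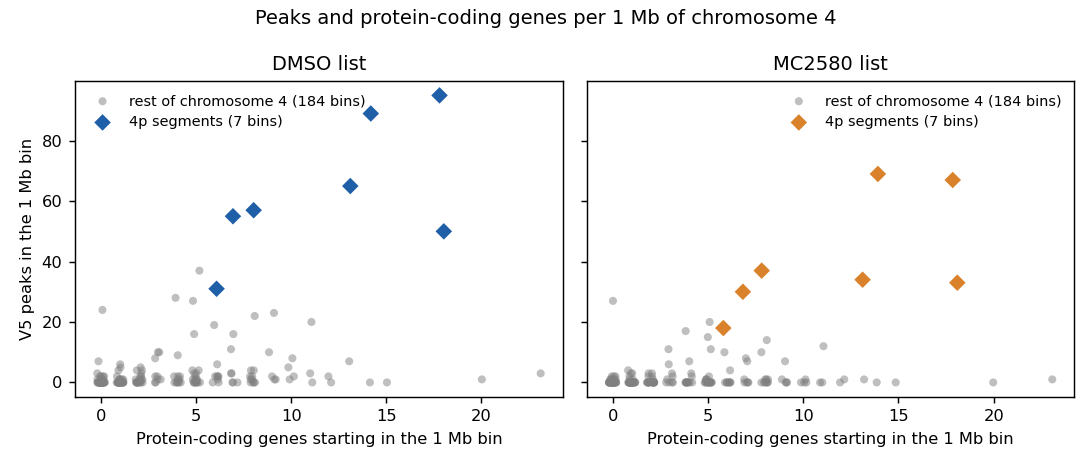
V5 peaks per 1 Mb bin of chromosome 4 (vertical axis, count) against the protein-coding genes that start in the bin (horizontal axis, count, with a small sideways shift so that points do not hide each other), for the DMSO and the MC2580 list. Diamonds are the 7 bins of the segments and grey circles the 184 other bins. The segments' bins lie between 31 and 95 DMSO peaks and between 18 and 69 MC2580 peaks, above the other bins with as many genes.

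The MC2580 list had 0.652 times as many peaks as the DMSO list in the segments (288 against 442, exact binomial 95% interval 0.560 to 0.758, which like all intervals here covers counting error only). On the rest of chromosome 4 the ratio was 0.536 (0.457 to 0.626) and over the whole lists 0.618 (0.605 to 0.632). Among peaks with a score of at least 100 it was 0.290 (0.199 to 0.415) in the segments and 0.268 on the rest. In the segments 138 DMSO and 40 MC2580 peaks reached that score, and in the whole lists 9480 and 4468, a smaller drop. For peaks of any score the ratio was 0.689 (0.572 to 0.828) in the tip segment and 0.582 (0.443 to 0.760) in the inner segment. The intervals of the tip and inner segments overlap, as do those of the segments and the rest of the chromosome over all scores. Overlap of intervals is not a test of a difference, and none was made. The depth of the libraries was unknown, and a shallower library gives fewer peaks. Its part in the ratio was not tested.

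Peaks of the segments were many but mostly of low score. The lists do not name their score. It was taken, from its range, as the peak caller's minus 10 times log10 of the p-value, so that calling started at 50. The median score was 80.9 in the DMSO list (95% interval 76.7 to 85.3, n = 442) and 64.8 in the MC2580 list (61.7 to 68.3, n = 288). On the rest of chromosome 4 the medians were 78.1 (73.0 to 81.2) and 64.1 (61.2 to 69.3), within the segments' spread, and over the whole lists 91.1 and 78.1. In the segments 31.2% of DMSO peaks scored 100 or more (27.1 to 35.7, a Wilson 95% interval as for all shares), and 13.9% of the MC2580 peaks did (10.4 to 18.4), against 44.3% and 33.8% of the whole lists.

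The median width was 1006 bp in the DMSO list (964 to 1059) and 844 bp in the MC2580 list (809 to 879). DMSO peaks were thus about as wide as in the whole list (1000 bp) and wider than on the rest of chromosome 4 (913 bp, 880 to 943). MC2580 peaks were narrower than in their whole list (928 bp, 923 to 935), with an interval that overlapped that of the rest (835 bp, 811 to 867). The widest peaks of the segments were 4919 and 2164 bp. In the whole lists the widest peaks were 127639 and 65737 bp, and 116 DMSO and 86 MC2580 peaks shared the value 3100, which no peak of the segments reached. The highest score in the segments was 2783.

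That peak lay in an intron of ZFYVE28, which encodes an endosomal FYVE domain protein that restrains signalling of the EGF receptor. It spanned 2412433 to 2414781, 3828 bp from the nearest annotated transcription start site, and the overlapping MC2580 peak had a score of 923. A second intronic ZFYVE28 peak at 2389855 to 2391756 scored 920 in DMSO and 229 in MC2580. The body of ZFYVE28 held 19 DMSO and 12 MC2580 peaks over 149 kb, and the latter was the highest MC2580 count of any gene of the segments. The strongest peak of the MC2580 list alone in the tip segment lay in the same gene with a score of 142.

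SH3BP2 encodes an adaptor of immune receptor signalling that is mutated in cherubism, a disorder of the jaw. Its highest peak, 2195 bp from a start site at 2834540 to 2836165, scored 975 in DMSO and 306 in MC2580. The widest peak of the segments, 4919 bp long with a score of 578 in DMSO, lay 2354 bp from a start site of SH3BP2 and was overlapped by 4 MC2580 peaks, of which the highest scored 175. In all, 12 DMSO and 8 MC2580 peaks lay within 3 kb of a start site of SH3BP2, the gene with most of them among the listed genes.

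In the inner segment the highest score was 1022, at 6266510 to 6268551, 1298 bp from the start of WFS1. WFS1 encodes wolframin, a membrane protein of the endoplasmic reticulum. No MC2580 peak overlapped it, whereas a weaker WFS1 peak at 6278434 to 6279502 with a score of 264 had an MC2580 partner with a score of 167. TBC1D14, a regulator of autophagy and recycling endosomes, had the next score, 906 in an intron at 6924964 to 6926649, with 318 in MC2580. Its body held 15 DMSO and 11 MC2580 peaks, and 2 further intronic peaks scored 374 and 447 in DMSO and 71.3 and 81.0 in MC2580. The third score was in HTRA3, a secreted serine protease, with 553 in DMSO and 112 in MC2580.

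Among peaks of the DMSO list alone, the next scores were 463 in an intron of the zinc finger gene ZNF718 and 377 in an intron of RGS12, a regulator of G protein signalling, both in the tip segment. In the inner segment a peak 1406 bp from KIAA0232 scored 340. Peaks of the MC2580 list alone were weaker. Besides the one in ZFYVE28, the highest were 139 in SH3TC1, 129 at 13011 bp from the receptor gene FGFRL1, and 128 near BLOC1S4.

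An overlapping peak in the other list, sharing at least 1 bp, was found for 99 of the 442 DMSO peaks (22.4%, 18.8 to 26.5) and for 102 of the 288 MC2580 peaks (35.4%, 30.1 to 41.1). Over the whole lists these shares were 33.6% and 58.0%. On the rest of chromosome 4 they were 19.7% (16.3 to 23.5) and 37.5% (31.7 to 43.7), with intervals that overlapped those of the segments. Both lists shared the EV library as background. The tip segment had 24.6% and 37.7% and the inner segment 18.3% and 30.3%, and between the segments 1 of 27 DMSO peaks overlapped.

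The overlap depended on the score. In the segments it went from 13.5% of the 193 DMSO peaks below 75 to 18.0% of 111 peaks from 75 to 100, 32.1% of 106 from 100 to 200 and 59.4% of 32 at 200 or more. On the rest of chromosome 4 the same bands had 2.78%, 7.23%, 28.4% and 80.6%, and in the whole list 12.9%, 22.7%, 39.8% and 76.7%. Below 75 the share in the segments (9.36 to 19.0%) was close to that of the whole list (12.2 to 13.7%) and above that on the rest of the chromosome (1.28 to 5.93%). MC2580 peaks covered 3.74% of the segments' sequence and 0.132% of the rest, and the part of this coverage in the overlap was not tested. At 200 or more the segments' share lay below the whole list (42.3 to 74.5% against 75.4 to 78.0%), and its interval overlapped that on the rest (69.1 to 88.6%). Among MC2580 peaks from 100 to 200, 57.1% of 35 overlapped in the segments (40.9 to 72.0), 88.0% of 25 on the rest (70.0 to 95.8) and 81.9% in the whole list (80.4 to 83.2).

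**Figure D2:**
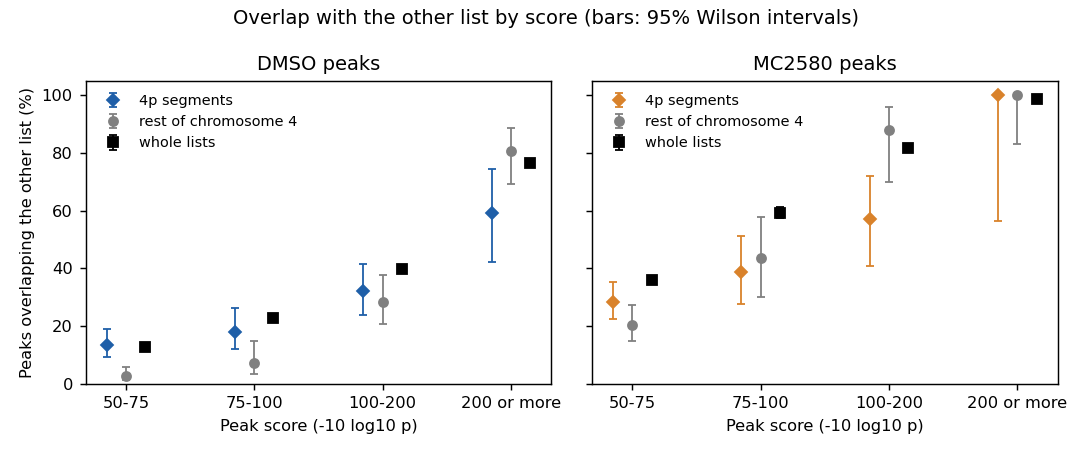
Share of peaks that overlap a peak of the other list (vertical axis, percent) by peak score (horizontal axis, 4 bands), for DMSO peaks and MC2580 peaks in the segments, on the rest of chromosome 4 and in the whole lists. Bars are Wilson 95% intervals. DMSO peaks of the segments rise from 13.5% to 59.4%, and those on the rest of the chromosome from 2.78% to 80.6%.

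Peaks with a partner had higher scores than those without. In the DMSO list the medians were 109 (94.8 to 124, n = 99) and 76.4 (72.8 to 80.3, n = 343), and in the MC2580 list 72.5 (64.0 to 85.7, n = 102) and 62.7 (58.5 to 65.9, n = 186). A promoter position was about as frequent in both kinds, 48.5% and 45.5% of DMSO peaks and 46.1% and 38.7% of MC2580 peaks.

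In the segments 90 DMSO peaks had exactly 1 MC2580 partner that itself had no other. The MC2580 score was the lower one in 72 of these pairs (80.0%, 70.6 to 87.0), as in 76.7% of the pairs of the whole lists. The median ratio of the MC2580 to the DMSO score was 0.674 (0.593 to 0.774), against 0.515 (0.394 to 0.648) for 84 pairs on the rest of chromosome 4 and 0.638 over all pairs. The 17 pairs with a DMSO score of at least 200 all had the lower score in MC2580, with a median ratio of 0.313. Of the 42 pairs with a DMSO score under 100, 25 did, with a median of 0.921. A pair needs a score past the calling threshold in both lists, so that weak DMSO peaks cannot show a low ratio. The DMSO score that sorts the pairs is also the divisor of the ratio. The values by DMSO score are therefore a description and do not show which sites changed most.

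The lowest ratio, 0.0775, was in MAEA, a ubiquitin ligase subunit with a role in erythroblast islands, where a peak at 1335852 to 1337162 scored 775 in DMSO and 60.0 in MC2580. The highest, 1.505, was in FGFR3 at 1804279 to 1805411, with 68.1 in DMSO and 102 in MC2580. The centres of paired peaks lay 270 bp apart in the median, against 85.5 bp on the rest of chromosome 4 and 130 bp over all pairs.

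**Figure D3:**
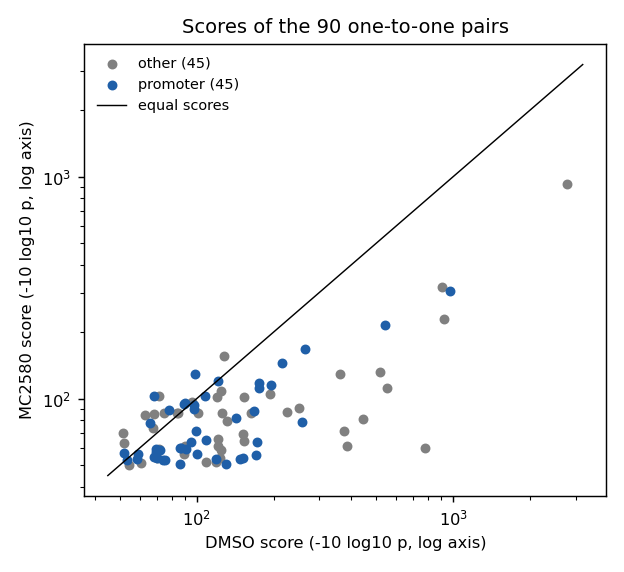
MC2580 score against DMSO score for the 90 pairs of the segments, both on log axes, with the score taken as minus 10 times log10 p. Blue points are the 45 pairs at promoters and grey points the 45 others, and the line marks equal scores. 72 of the 90 points lie below the line, and all 17 with a DMSO score of at least 200.

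A peak was called a promoter peak if it came within 3 kb of an annotated start site. Start sites of all transcripts counted, so that a promoter peak of a gene can lie far inside it or near its end. This held for 46.2% of DMSO peaks (41.6 to 50.8) and 41.3% of MC2580 peaks (35.8 to 47.1) in the segments, against 26.3% (22.5 to 30.5) and 18.5% (14.2 to 23.9) on the rest of the chromosome and 35.2% and 31.0% of the whole lists. With a limit of 1 kb the segments' shares were 24.4% and 21.5%, and with start sites of protein-coding transcripts alone 23.1% and 19.1%. The tip segment had 52.9% and 47.2%, the inner segment 33.3% and 28.1%. Introns took 27.6% and 27.8% of the segments' peaks, exons or untranslated regions 9.28% and 9.03%, and distal intergenic sequence 17.0% and 21.9%.

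Start sites were dense in the segments, however. With peaks reduced to their centres, 41.2% of DMSO peaks (36.7 to 45.8) and 37.5% of MC2580 peaks (32.1 to 43.2) lay within 3 kb of a start site, where 30.9% of the segments' sequence lies. On the rest of the chromosome 24.6% and 15.7% did so, with 11.9% of the sequence. In the inner segment the share of MC2580 peaks was 23.6% (16.0 to 33.4), next to 22.1% of the sequence.

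Promoter peaks of the segments mostly lay beside the start site. Only 49 of the 204 DMSO promoter peaks contained one (24.0%, 18.7 to 30.3), against 50 of 122 (41.0%, 32.7 to 49.9) on the rest of chromosome 4. In the MC2580 list it was 16 of 119 (13.4%, 8.45 to 20.7) against 11 of 46 (23.9%, 13.9 to 37.9).

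Of the 84 protein-coding genes that the segments hold, 64 had a DMSO promoter peak (76.2%, 66.1 to 84.0) and 58 an MC2580 promoter peak (69.0%, 58.5 to 77.9). Among all protein-coding genes the shares were 16.1% and 7.87%, and among the 673 on the rest of chromosome 4 they were 11.6% and 3.86%. Since the segments were chosen for their density, these shares are a description. They count the starts of all transcripts of a gene and were not computed for protein-coding transcripts alone. In all, 49 genes had a promoter peak in both lists, 15 in the DMSO list alone, 9 in the MC2580 list alone and 11 in neither. Among all 20033 protein-coding genes these numbers were 1281, 1953, 296 and 16503. In 18 of the 49 genes (36.7%, 24.7 to 50.7) the highest DMSO promoter peak itself overlapped an MC2580 peak, and in the other 31 it did not, although weaker peaks of such a gene could overlap, as in WFS1. Of all 204 DMSO promoter peaks of the segments, 48 overlapped an MC2580 peak (23.5%). Neighbouring genes can share a peak, and the 64 genes had 61 different highest peaks.

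Among regulators of chromatin and transcription, 10 listed genes lay in the segments, and 8 had promoter peaks in each list, the same 8 genes. Over all 84 protein-coding genes of the segments the shares were 76.2% for DMSO and 69.0% for MC2580. They are the background of this count and of those for the gene lists below. NELFA, a subunit of the factor that pauses RNA polymerase II, had the highest DMSO promoter score of this list, 265. That peak, at 2009117 to 2010785, lay over a transcript start inside the gene, which begins at 2041903 on the minus strand. The highest MC2580 promoter peak of NELFA, at another place, had 92.6. NSD2, which methylates histone H3 at lysine 36, had 8 DMSO promoter peaks up to 175 and 1 MC2580 peak of 68.6, which overlapped none of them. The highest, at 1928129 to 1930135, lay inside the gene, which begins at 1871393. The body of NSD2 held 11 DMSO peaks and 2 MC2580 peaks. CTBP1, a corepressor, had 4 DMSO promoter peaks up to 109 and 1 MC2580 peak of 64.8 that overlapped the highest. RNF4, a ubiquitin ligase for SUMO-modified proteins, had a highest DMSO promoter peak of 109 without a partner, and 1 of 67.9 over a start site that overlapped an MC2580 peak of 54.5. In the polycomb gene PCGF3 the highest promoter peaks, 58.8 in DMSO and 72.3 in MC2580, did not overlap, and an intronic peak found in both lists had 124 and 58.6. NKX1-1 and HMX1, homeobox genes, had no promoter peak.

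The list of blood and immune genes was chosen with earlier results of these data known, so its scores are a description and are not ranked against the other lists. All 7 of its genes in the segments had a DMSO promoter peak, with a median highest score of 265, and 6 had an MC2580 peak, with a median of 114. SPON2, a secreted protein of innate immune recognition, had a peak with 541 in DMSO and 216 in MC2580. It lay at 1200420 to 1202622, over a transcript start inside the gene, which begins at 1208962 on the minus strand. TNIP2, an inhibitor of NF-κB signalling, had 265 and 85.7, and ADD1, an adducin of the red cell membrane skeleton, 219 and 87.8, in both genes at places that did not overlap. The ADD1 peaks, at 2922044 to 2924049 and 2929264 to 2930602, lay near the far end of the gene, which runs from 2843844 to 2930076. S100P, a small calcium-binding protein, had 3 DMSO promoter peaks with scores of 265, 63.1 and 140. None of them had an MC2580 partner, as only 23.5% of the segments' DMSO promoter peaks did, and no MC2580 peak lay within 3 kb of the gene.

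All 8 genes around FGFR3 had an MC2580 promoter peak and 7 a DMSO one. FGFR3 itself had 4 DMSO promoter peaks, the highest 175 at 1343 bp from the start, and 3 MC2580 peaks, the highest 117. LETM1, a mitochondrial inner membrane protein, had 175 and 112, and TACC3, a spindle protein, had 6 peaks up to 147 and 5 up to 93.6, the highest of each at different places. SLBP, which binds the stem-loop of histone mRNAs, had an MC2580 promoter peak of 90.9 and no DMSO one. The same peak lay 181 bp from a start site of TACC3 and counts for both genes. In the body of SLBP a peak was found in both lists, with 121 in DMSO and 66.1 in MC2580.

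The KRAB zinc finger genes at the chromosome end, a family that includes repressors of transposable elements, had few MC2580 peaks. Of the 5, 4 had a DMSO promoter peak and 1 an MC2580 one. ZNF732 was that gene, with 195 in DMSO and 116 in MC2580. With 5 genes this count has little precision.

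Neuronal signalling genes had promoter peaks in 7 of 10 cases in each list and in both lists in 4. Of all 84 protein-coding genes of the segments, 64 had a DMSO and 58 an MC2580 promoter peak, and 49 had both. LRPAP1, a chaperone of the LDL receptor family, had a DMSO promoter peak of 292 and DOK7, of the neuromuscular junction, one of 197, without an MC2580 promoter peak. The adrenergic receptor gene ADRA2C, the complexin gene CPLX1 and the phosphatase subunit gene PPP2R2C had an MC2580 promoter peak alone, with scores of 55.8, 53.5 and 81.0. HTT had 12 DMSO and 9 MC2580 peaks in its 203 kb, the highest 153 and 102.

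Of the 6 lysosome and endoplasmic reticulum genes, 5 had a DMSO and 6 an MC2580 promoter peak. Besides WFS1, MAN2B2, a lysosomal mannosidase, had 179 and 60.3, whereas PIGG, an enzyme of GPI anchor synthesis, had 68.1 and 108, in both genes at places that did not overlap. IDUA, the lysosomal iduronidase, had an MC2580 peak of 55.6 alone. The list named for actin and the cytoskeleton had 6 genes and also took in TBC1D14, described above as a regulator of autophagy. Of these, 6 had a DMSO and 5 an MC2580 promoter peak, next to 76.2% and 69.0% of all genes of the segments.

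**Figure D4:**
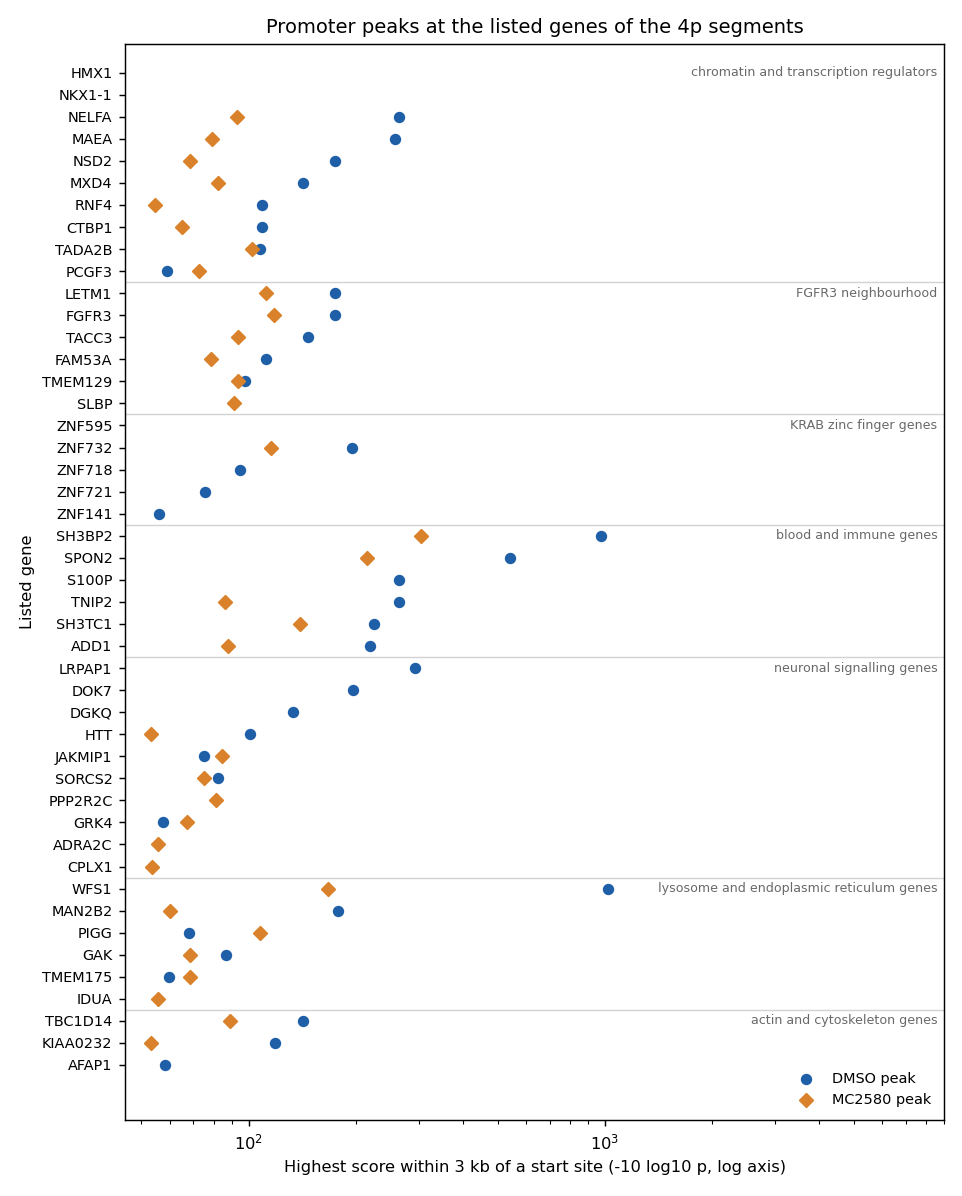
Highest peak score within 3 kb of the start of any transcript of the gene, for listed genes of the segments. The horizontal axis is a log axis of the score, taken as minus 10 times log10 p. Genes are grouped by list, with a gene of more than 1 list shown in the first. Circles are DMSO peaks and diamonds MC2580 peaks, a missing symbol means that the list had no peak there, and both symbols of a gene can stand for different places. SH3BP2 and WFS1 have the highest DMSO scores (975 and 1022), and S100P is among the listed genes without an MC2580 peak.

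Words of 6 factor families were searched on both strands in the central 200 bp of each peak. They were GAGGAAGT for PU.1, TGTGGTTT for RUNX, TGANTCA for AP-1, TTGCNNAA for CEBP, AGATAA for GATA and AATCACNG for GFI1, and words can overlap. The CEBP word was in 7.24% of the 442 DMSO windows of the segments (5.17 to 10.0), in 16.0% on the rest of chromosome 4 (12.9 to 19.6) and in 14.1% over the whole list. GATA was in 6.33%, 11.9% and 10.7%, RUNX in 3.39%, 6.91% and 4.65%, and AP-1 in 7.01%, 10.6% and 9.32%.

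PU.1 and GFI1 did not follow this order. PU.1 was in 2.71%, 2.38% and 2.95% of the DMSO windows and GFI1 in 3.17%, 3.24% and 3.17%. In the MC2580 list the segments' CEBP share was 4.86% (2.92 to 7.99), against 10.9% (7.59 to 15.4) on the rest, with intervals that overlap slightly. Those of the other words overlapped too, with 7.29% (4.82 to 10.9) against 10.1% (6.92 to 14.5) for GATA and 3.82% against 5.65% for RUNX, the latter above the 3.16% of the whole list. The windows' median GC content was 56.5% in the segments' DMSO peaks and 47% on the rest, and the part of base composition in these shares was not tested.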

How the data were processed

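V5 ChIP-seq was performed in NB4 cells in 3 conditions, each with an input and 1 library. According to the methods of the study, reads were aligned by the authors to hg38 with Bowtie (4.8.2 in the submitters' processing notes), kept unique matches with at most 2 mismatches, and called peaks with MACS at p = 1e-05 against the respective input and the EV ChIP. How the 2 backgrounds were combined, and the depth of the libraries, are not given in the sources used here. The 2 deposited lists hold positions and an unnamed score, taken from its range as the peak caller's minus 10 times log10 p. Each list was assigned to its condition by its name. No peak ran past a chromosome end of hg38.

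Members were selected by start position. Overlap meant at least 1 bp. Genes were taken from GENCODE 44, and peaks were classed as promoter (within 3 kb of any transcript's start), exon or untranslated region, intron, or distal intergenic, in this order. Shares have Wilson, peak number ratios exact binomial and medians order-statistic 95% intervals. They cover counting error only, and peaks are not replicates. No test was made.

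The segments, gene lists and words were chosen with earlier results of these data known. Named peaks were, per segment, the 3 highest of each list, the 2 highest found in 1 list alone, the widest, and those next to each limit. Named genes were 7 lists and the 5 genes with most body peaks in each list. Alternatives were a score of at least 100, a cut at the lowest DMSO score, removal of the widest 1% or of the densest bin, merging within 1 kb, other overlap rules and other promoter definitions. 1 listed gene and 2 peak sequences are not reported here. Interval functions were tested on simulated data. Scripts ran in Python 3.11.15 with pandas 2.3.3, numpy 2.4.6, scipy 1.17.1 and matplotlib 3.10.9.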

Additional observations from a re-analysis of the deposited data

How the results depend on the processing

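Each of 13 values was recomputed under up to 7 of 9 alternatives, and 54 of the 73 recomputed values stayed within the interval (or, for counts, within 1.5 times) of the value given. None moved by this measure under a cut at the lowest DMSO score (51.6), removal of peaks wider than 7875 bp (no peak of the segments was), merging within 1 kb, or removal of the bin from 2 to 3 Mb. With scores of at least 100, 138 DMSO and 40 MC2580 peaks remained, a ratio of 0.290 in the segments and 0.268 on the rest of chromosome 4. The overlapping share was then 15.9% of DMSO and 55% of MC2580 peaks, the median scores 135 and 117, the median widths 1431 and 1254 bp and the median score ratio of pairs 0.581. Keeping strong peaks raises scores by construction. An overlap of at least 50% of both peaks left 14.5% and 22.2%, and counting peaks within 1 kb gave 31.0% and 45.1%. Promoters within 1 kb took 24.4% of DMSO and 21.5% of MC2580 peaks, and start sites of protein-coding transcripts alone 23.1% and 19.1%. In each alternative the MC2580 list had fewer peaks than the DMSO list in the segments (ratios 0.290 to 0.695). No paired analysis was possible because every condition had a single library. Differences between the conditions have no replicate check, and unknown depth limits every count and score.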

Other observations

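The rest of chromosome 4 held a few dense bins of its own. The bin from 40 to 41 Mb had 37 DMSO and 20 MC2580 peaks, with a highest DMSO score of 2491, and those from 26 to 27 and from 38 to 39 Mb had 28 and 27 DMSO peaks. The bin from 49 to 50 Mb had 24 DMSO and 27 MC2580 peaks and no protein-coding gene. There 22 of the 24 DMSO peaks had an MC2580 partner and the score reached 3100 in both lists, whereas in the segments' densest bin 25 of 95 DMSO peaks did and the highest score was 2783.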
